A study of Mus musculus with 8 samples.

Results

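The Arp2/3 complex is the actin nucleator that starts a new filament as a branch on the side of an existing one. It holds 7 kinds of subunit. Considered here are 9 mouse genes that encode them, Actr2, Actr3, Arpc1a, Arpc1b, Arpc2, Arpc3, Arpc4, Arpc5 and Arpc5l. Actr3b, a paralogue of Actr3, is not among these 9. The list of 9 was taken as a whole, and it was chosen with earlier results of these data known. Of the 9, 7 had a probe set with a single gene symbol, among 19938 genes in all, and Actr2 and Arpc3 were not analysed here. If several probe sets named the same gene, the brightest by its 8-array mean stood for it. Levels are log2 RMA values, whose size depends on the probes, so levels of different genes are not compared.

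The arrays measured RNA of primary C57Bl6 mouse cells labelled as aortic smooth muscle, at passage 3 to 4 and kept for 24 h in DMEM with 10% FCS. Control cultures (4 arrays) were taken to be without jasplakinolide, and the treated cultures (4 arrays) to have received 100 nM of it. The groups follow the sample titles and source names; the treatment field of the labels names jasplakinolide for all 8 samples. Jasplakinolide is a cell-permeable sponge compound that holds actin in filaments and drives further assembly. Nothing in the labels says that replicates were separate cultures or animals, so the p-values reflect only the scatter of these 8 samples, part of which may be technical.

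The actin-related proteins Arp2 and Arp3, from Actr2 and Actr3, take the place of the first subunits of the new filament. ARPC2 and ARPC4 form the core that grips the mother filament, and ARPC1, ARPC3 and ARPC5 complete the complex. ARPC1 and ARPC5 each exist as paralogues that replace one another in the complex, and complexes with ARPC1B and ARPC5L are known to assemble branched actin more readily than those with ARPC1A and ARPC5. The complex is inactive until a nucleation-promoting factor such as N-WASP or a WAVE protein binds it, downstream of Cdc42 and Rac. In smooth muscle, actin assembly lowers the pool of actin monomers, which frees myocardin-related cofactors to act with serum response factor on contractile genes through a promoter element called the CArG box.

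No measured subunit transcript passed the test for a change with jasplakinolide. Of the 7, 0 rose and 0 fell (limma, adjusted p under 0.05 with Benjamini-Hochberg adjustment over all genes; lowest adjusted p = 0.489). Among all genes tested, 0.772% passed that threshold (154 genes), 0.436% higher and 0.336% lower. With the replicate number as a block, again 0 of 7 passed, against 1.89% of all genes (377 genes). At an unadjusted p under 0.05, 2 of the 7 passed, against 8.87% of all genes. The 2 were Actr3 and Arpc2. The 95% intervals (limma) of the 7 differences lay within a range from 0.899 to 1.19 times the control level.

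The number of arrays limits this precision. The count of 154 fell to between 43 and 78 when any 1 array other than control 2 was left out (150 without control 2), and the count of subunits called stayed at 0 in all 8 of these fits.

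Promoters of the transcripts with the largest and the smallest difference are shown because the CArG box is the element through which actin assembly is known to reach contractile genes. Of the 9 genes, 8 had an entry among RefSeq promoter windows of build GRCm38.p6; Arpc5l had none. The bases before the annotated start of Actr3 (largest difference), Arpc2 (next) and Arpc4 (smallest) are given 5′ to 3′ on the strand of the gene, which is the minus strand for Actr3 and the plus strand for Arpc2 and Arpc4. Capitals mark the CArG box and the letters CCGGAAG, a core of ETS-family sites, on either strand.
Actr3, chr1:125435728-125435977: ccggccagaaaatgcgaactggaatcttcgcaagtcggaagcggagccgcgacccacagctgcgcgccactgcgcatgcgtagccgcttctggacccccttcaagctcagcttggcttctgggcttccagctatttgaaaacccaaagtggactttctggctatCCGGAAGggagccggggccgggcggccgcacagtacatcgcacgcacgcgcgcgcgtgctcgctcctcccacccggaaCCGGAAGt
Arpc2, chr1:74236267-74236489: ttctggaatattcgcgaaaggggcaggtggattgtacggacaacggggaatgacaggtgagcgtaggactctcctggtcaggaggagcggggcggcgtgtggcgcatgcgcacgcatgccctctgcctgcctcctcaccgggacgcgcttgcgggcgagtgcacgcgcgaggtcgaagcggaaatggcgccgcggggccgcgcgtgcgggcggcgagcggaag
Arpc4, chr6:113377863-113378112: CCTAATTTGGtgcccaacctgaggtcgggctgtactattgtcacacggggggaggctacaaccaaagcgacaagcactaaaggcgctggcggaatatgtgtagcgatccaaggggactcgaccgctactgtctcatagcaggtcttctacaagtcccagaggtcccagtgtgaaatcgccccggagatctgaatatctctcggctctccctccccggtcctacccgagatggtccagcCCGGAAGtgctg
The Arpc2 run has 223 bases, since it stops at the outermost annotated start of that gene; the others have 250. It holds neither motif, Actr3 holds CCGGAAG, and Arpc4 holds both.

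In the 250 bases before the start, the CArG box occurred in 1 of the 8 members' windows, that of Arpc4, at its far end (250 to 241 bases before the start). Over all 32851 windows it occurred in 1.47%. CCGGAAG lay in 5 of the 8 (Actr2, Actr3, Arpc1a, Arpc3 and Arpc4), against 6.91% of all windows. In Actr3 it began 86 and 8 bases before the start, and in Arpc4 12 bases before it. The GC box GGGCGG lay in 5 of the 8 (Actr2, Actr3, Arpc1b, Arpc2 and Arpc5), against 32.7% of windows, and Arpc1b held 7 copies. TATAAA lay in 0 of the 8, against 12.4%. Both strands were searched, and no match of one motif overlapped another motif in these windows. A match is a description of letters and not of a bound site. The motifs were chosen after the expression values were seen. The shares are over all windows, not those of genes like the members, and enrichment was not tested.

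Actr3, which encodes Arp3, had the largest difference. Its log2 level was 11.41, 11.41, 11.43 and 11.31 on control arrays 1 to 4 and 11.59, 11.46, 11.51 and 11.47 on jasplakinolide arrays 1 to 4. Every treated array lay above every control array, with control 4 low and jasplakinolide 1 high. The log2 difference was 0.12 ± 0.05 (SE, n = 4 each; 95% interval 0.009 to 0.229), a 1.09-fold difference. It did not pass the test (limma, adjusted p = 0.497).

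Arpc2, which encodes the large core subunit, was the only other member whose groups did not overlap. It measured 12.68, 12.59, 12.69 and 12.66 log2 in control and 12.75, 12.73, 12.76 and 12.79 with jasplakinolide. Control 2 was the low array, and the treated arrays lay close together. The log2 difference was 0.10 ± 0.04 (SE, n = 4 each; 95% interval 0.009 to 0.199), 1.07-fold, and did not pass (limma, adjusted p = 0.489). Groups did not overlap in 2 of the 7 members, both higher, and in 6.91% of all genes tested, 3.62% higher.

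Arpc4, the partner of ARPC2 in the core and the member with a CArG box in its window, had the smallest difference. Its values were 11.13, 11.12, 11.09 and 11.07 log2 in control and 11.16, 11.12, 11.07 and 11.04 with jasplakinolide. The treated arrays reached both above and below all control arrays. The 95% interval of the log2 difference ran from -0.098 to 0.099.

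**Figure D1:**
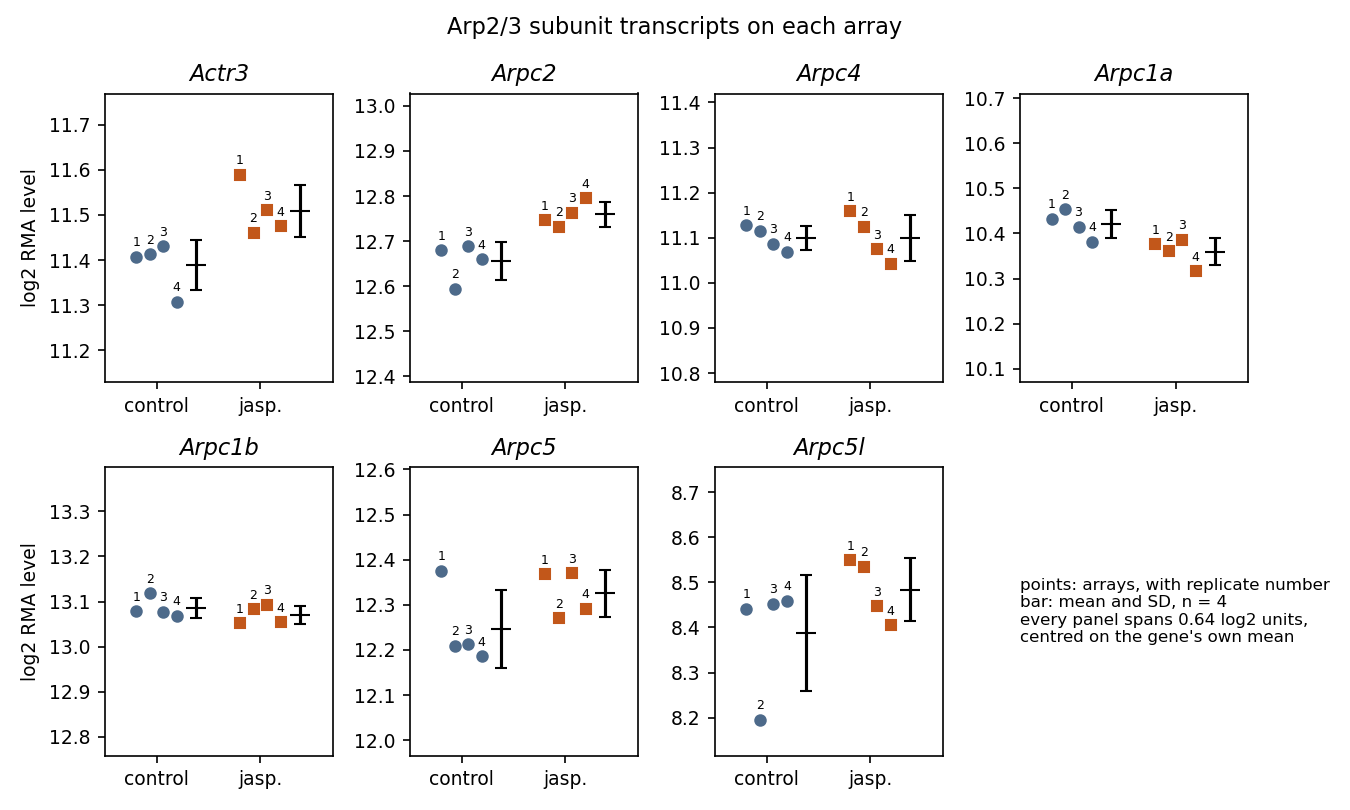
Log2 RMA levels (vertical axes) of the 7 measured Arp2/3 subunit transcripts on 4 control arrays (circles) and 4 jasplakinolide arrays (squares), numbered by replicate, with the mean and SD of each group. Each panel is centred on its own gene and has the same span; only in Actr3 and Arpc2 do all treated arrays lie above all control arrays.

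The WD-repeat subunit is made from Arpc1a or Arpc1b, which are neighbours in the mouse genome. Arpc1a had a lower mean with jasplakinolide: 10.43, 10.45, 10.42 and 10.38 log2 in control against 10.38, 10.36, 10.39 and 10.32. Only the lowest control array, control 4, fell among the treated values. The log2 difference of -0.06 ± 0.04 (SE, n = 4 each; 95% interval -0.153 to 0.031) did not pass (limma, adjusted p = 0.783).

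Arpc1b, the isoform whose loss in people causes platelet and immune defects, measured 13.08, 13.12, 13.08 and 13.07 log2 in control and 13.05, 13.08, 13.09 and 13.05 with jasplakinolide. The groups overlapped, and the 95% interval of the log2 difference ran from -0.104 to 0.072. Arpc1b was the one member with 2 probe sets, both annotated to this gene symbol alone. The other measured 13.09, 13.10, 13.09 and 13.10 in control and 13.04, 13.08, 13.05 and 13.01 with jasplakinolide. On it all treated arrays lay below all control arrays, but the log2 difference of -0.05 ± 0.04 (SE, n = 4 each) did not pass among all probe sets (limma, adjusted p = 0.837).

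ARPC5 and ARPC5L hold the same place in the complex. Arpc5 measured 12.38, 12.21, 12.21 and 12.19 log2 in control and 12.37, 12.27, 12.37 and 12.29 with jasplakinolide. Control 1 stood with the highest treated arrays, and the other 3 control arrays lay below all treated ones. The log2 difference was 0.08 ± 0.05 (SE, n = 4 each; 95% interval -0.044 to 0.202; limma, adjusted p = 0.791), and 0.12 without control 1.

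Arpc5l measured 8.44, 8.20, 8.45 and 8.46 log2 in control and 8.55, 8.53, 8.45 and 8.40 with jasplakinolide. Control 2 was low, and the remaining arrays of both groups overlapped. The log2 difference of 0.10 ± 0.07 (SE, n = 4 each; 95% interval -0.058 to 0.252; limma, adjusted p = 0.800) was 0.03 without control 2. Arpc5l had the widest interval of the 7.

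Across the 7 members, 5 had a higher and 2 a lower mean with jasplakinolide. The median log2 difference was 0.08 (0.03 without control 2), with a range from -0.06 for Arpc1a to 0.12 for Actr3, and the median over all genes was 0.01. The SD within a group ran from 0.021 log2 for Arpc1b to 0.128 for Arpc5l. The mean of Arpc4 was not on a stable side of 0: its difference was 0.00 as given and -0.01 after median centring.

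**Figure D2:**
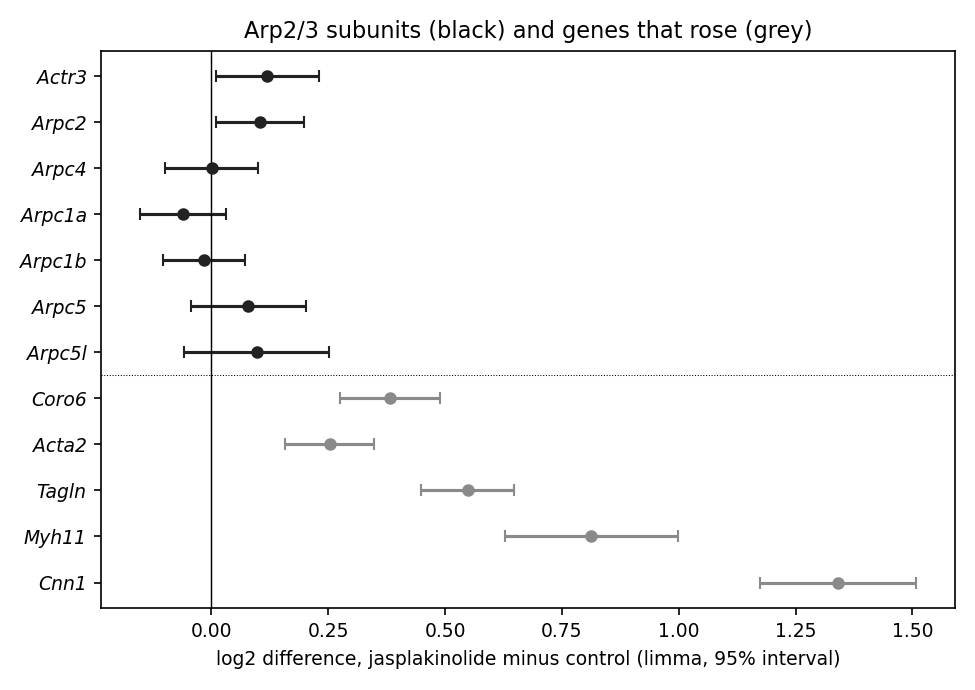
Log2 difference, jasplakinolide minus control (horizontal axis), with limma's 95% interval for the 7 measured subunits (black) and for 5 genes that rose (grey): Coro6, Acta2, Tagln, Myh11 and Cnn1. The subunits' intervals lie between -0.153 and 0.252, that of Acta2 overlaps this range, and those of Coro6, Tagln, Myh11 and Cnn1 lie wholly above it.

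Whether paralogues shifted against each other was examined within each array, as the difference of their log2 levels. The size of this difference depends on the probes and has no meaning of its own, so only its change between groups was compared. Arpc1b minus Arpc1a was 2.65, 2.67, 2.66 and 2.69 on the control arrays and 2.68, 2.72, 2.71 and 2.74 with jasplakinolide. Jasplakinolide 1 lay below control 4, and the other treated arrays lay above all controls. The mean went from 2.67 ± 0.02 to 2.71 ± 0.03 (SD, n = 4 each), a shift of 0.05 that missed the threshold (exact two-sided permutation test, p = 0.0571, adjusted p = 0.114 over 2 pairs; the smallest p of this design is 0.0286). Between arrays of the same number the shift was 0.03, 0.06, 0.04 and 0.05, higher in all 4 pairs (exact sign-flip permutation test, p = 0.125, the smallest that 4 pairs allow). Without jasplakinolide 1 the shift was 0.06 (exact permutation p = 0.0286), and with the other Arpc1b probe set it was 0.01.

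Arpc5l minus Arpc5 was -3.93, -4.01, -3.76 and -3.73 in control and -3.82, -3.74, -3.92 and -3.89 with jasplakinolide. The groups overlapped throughout. The shift of 0.02 log2 was smaller than the SDs of 0.137 and 0.082 (n = 4 each; exact two-sided permutation test, p = 0.829, adjusted p = 0.829 over 2 pairs). Without control 2 it was -0.03.

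**Figure D3:**
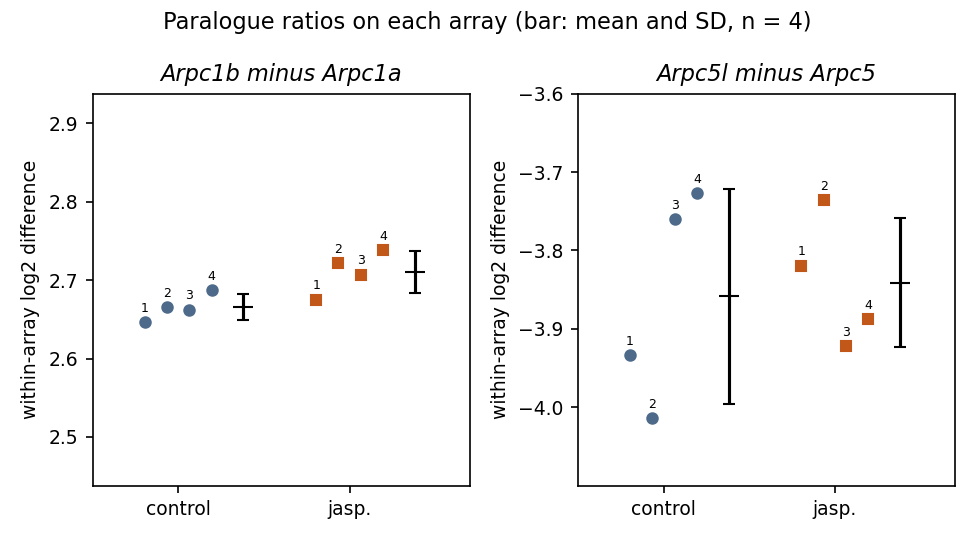
Within-array log2 difference of paralogue probe sets (vertical axes), Arpc1b minus Arpc1a and Arpc5l minus Arpc5, on the 4 control (circles) and 4 jasplakinolide arrays (squares), numbered by replicate, with the mean and SD of each group. The mean of the first pair went from 2.67 to 2.71 and that of the second from -3.86 to -3.84.

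The genes around the complex were described by 5 lists of 59 genes, 58 of them measured. In these lists 1 gene rose, 0 fell and 57 did not pass, against 0.772% of all genes called, and the same counts held with the replicate block (limma). At an unadjusted p under 0.05, 3 of the 58 passed, against 8.87% of all genes. In the list of inhibitors 2 passed, 1 higher and 1 lower, and among the capping proteins 1 passed, lower. Groups did not overlap in 4 of the 58, against 6.91% of all genes. The median log2 difference was 0.00.

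Nucleation-promoting factors, which switch the complex on, had 0 of 10 called and a median log2 difference of 0.06, with 9 of the 10 higher in mean. N-WASP (Wasl) differed by 0.05 ± 0.05, WAVE2 (Wasf2) by 0.01 ± 0.04 and the branch stabiliser cortactin (Cttn) by 0.03 ± 0.04 on the log2 scale (SE, n = 4 each). The widest differences in that list were those of its members best known from blood cells. Hcls1, the cortactin relative of those cells, differed by -0.18 ± 0.13, and Was, which encodes WASP, by 0.12 ± 0.10 (SE). Without jasplakinolide 4 these were -0.06 and 0.04. Over the fits with 1 array left out, Hcls1 ran from -0.25 to -0.06 and Was from 0.04 to 0.19. Hcls1 was 10.08, 9.99, 9.78 and 9.73 log2 in control and 9.93, 9.94, 9.64 and 9.35 with jasplakinolide, so the groups overlapped. Was was dim, with means of 7.08 log2 in control and 7.20 with jasplakinolide, below the array medians of 7.30 to 7.39.

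Partners of WASP, WAVE and WASH proteins had 0 of 14 called and a median of -0.01. The Abl-interactor genes Abi3 (-0.10 ± 0.07) and Abi2 (0.09 ± 0.07, SE), whose proteins sit in the WAVE complex, had the largest differences, which were -0.05 and 0.15 without jasplakinolide 4. Upstream GTPases and adaptors had 0 of 13 called and a median of 0.01. Rac1, the GTPase that activates the WAVE complex, differed by -0.04 ± 0.04, and Cdc42, which activates N-WASP, by 0.01 ± 0.04 (SE). The adaptor Nck1 (-0.08 ± 0.06) and Rac3 (-0.08 ± 0.06) had the largest differences of that list; Nck1 was at -0.03 without jasplakinolide 4 and Rac3 at -0.04 without control 3.

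Among inhibitors and debranching factors 1 of 11 rose, 0 fell and the list's median log2 difference was -0.04. The gene that rose was Coro6, a coronin known from muscle; coronins bind actin filaments, and several oppose or take apart Arp2/3 branches. It measured 8.23, 8.22, 8.29 and 8.18 log2 in control and 8.56, 8.57, 8.63 and 8.68 with jasplakinolide, with all treated arrays above all controls. The log2 difference was 0.38 ± 0.05 (SE, n = 4 each), 1.30-fold (limma, adjusted p = 0.00836). Coro6 missed the threshold only without control 4 (adjusted p = 0.0508) among the 8 fits with an array left out.

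Coro1c, the broadly expressed coronin, was higher on every treated array but differed by only 0.06 ± 0.04 log2 (SE; limma, adjusted p = 0.761). Coro2a, another coronin, was lower in mean, by -0.16 ± 0.07 log2 (SE; limma, unadjusted p = 0.0439, adjusted p = 0.535). Arpin, the inhibitor that competes with WAVE for the complex, differed by -0.11 ± 0.07 (SE; adjusted p = 0.771). Barbed-end capping proteins, which stop filament growth near branches, had 0 of 10 called and a median of 0.00. The largest difference there was that of Twf2 (twinfilin 2), from 9.48, 9.39, 9.52 and 9.37 log2 in control to 9.32, 9.29, 9.26 and 9.18. Its groups did not overlap, and its log2 difference of -0.17 ± 0.05 (SE) did not pass (limma, adjusted p = 0.249). Carmil3, a regulator of capping protein, differed by 0.08 ± 0.08 (0.03 without control 1 and 0.15 without control 2) and the capping protein subunit Capzb by 0.06 ± 0.04 (SE).

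Of 10 contractile smooth muscle markers on the same arrays 6 rose (5 with any single array left out) and 0 fell, against 0.436% and 0.336% of all genes, with a median log2 difference of 0.40. Cnn1 (calponin) rose 2.53-fold, Actg2 (smooth muscle gamma-actin) 1.90-fold and Myh11 (smooth muscle myosin) 1.76-fold (limma, adjusted p = 0.000254, 0.00411 and 0.00275). The mean level over this list was 10.49 to 10.62 log2 on the control arrays and 10.96 to 11.13 on the treated arrays.

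Endothelial markers also gave signal in these cultures labelled as smooth muscle: control means of the 12 ran from 7.78 log2 for Cldn5 and 8.08 for Vwf to 13.17 for Cdh5 and 13.41 for Emcn, the array medians being 7.30 to 7.38. Of the 12, 10 had a lower mean with jasplakinolide, 6 passed an unadjusted p under 0.05 and 1 fell, Robo4 (log2 difference -0.41 ± 0.06, SE; limma, adjusted p = 0.0170; not called without control 3, control 4, jasplakinolide 1 or jasplakinolide 2), and 3 fell with the replicate block, Robo4, Kdr (-0.45 ± 0.15, SE without the block) and Tek (-0.31 ± 0.08). The mean over the 12 was 10.90 to 10.94 log2 in control and 10.69 to 10.81 with jasplakinolide. Blood cell markers had 0 of 11 called (limma; 3 at an unadjusted p under 0.05; 1 lower with the block, Cd68) and a mean of 7.53 to 7.59 log2 in control and 7.55 to 7.59 with jasplakinolide. Cd68 differed by -0.24 ± 0.07 and Lyz2, which encodes lysozyme, by 0.17 ± 0.05 log2 (SE). Adventitial fibroblast markers had 0 of 7 called (limma; 2 at an unadjusted p under 0.05; 1 lower with the block, Dcn). The matrix genes Dcn and Dpt differed by -0.54 ± 0.12 and -0.46 ± 0.11 (SE). The control mean of Dcn was 12.79 log2. Dpt was dim, with means of 5.55 log2 in control and 5.09 with jasplakinolide, both below the array medians. Beside these counts, 8.87% of all genes passed an unadjusted p under 0.05 and 0.336% were called lower (limma). With the block 1.89% were called in either direction. In bulk RNA, fewer cells of a type and less RNA per cell cannot be told apart, and the part of cell mixture in the subunit values was not tested.

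**Figure D4:**
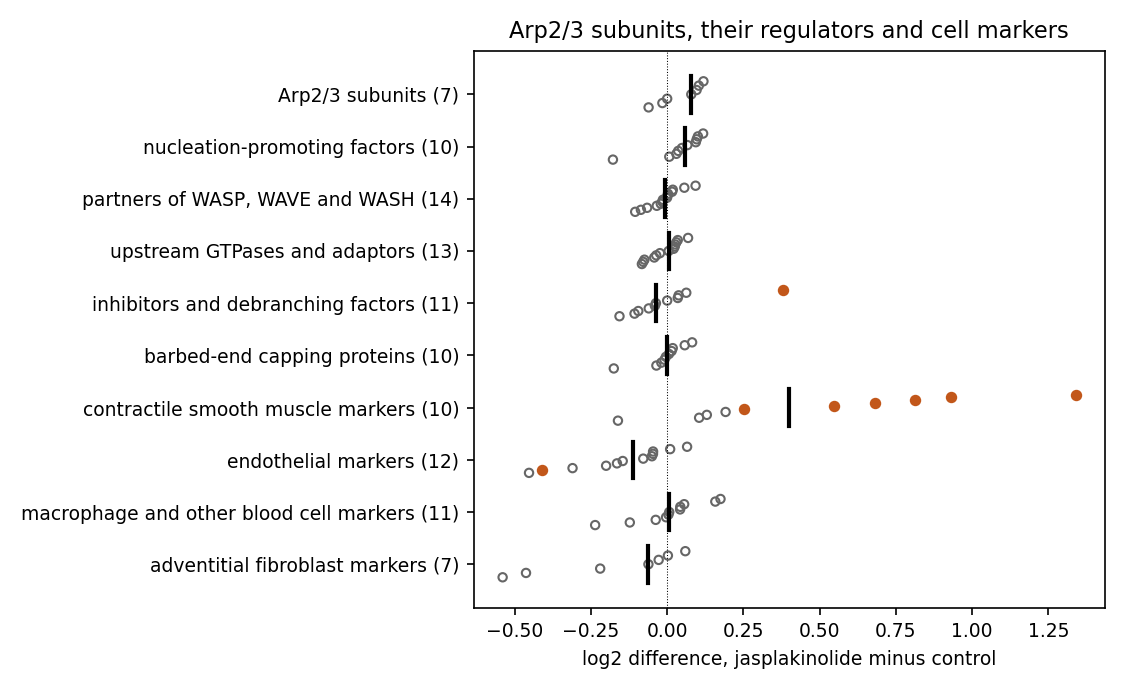
Log2 difference, jasplakinolide minus control (horizontal axis), of each measured gene in the Arp2/3 subunits, 5 lists of their regulators and 4 lists of cell markers (number of genes in brackets), with list medians as black bars and genes with a limma adjusted p under 0.05 filled. No subunit is filled, Coro6 is the 1 filled point among the regulators, and 6 of the 10 contractile markers are filled to the right.

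By the likeness rule, the 3 genes whose 8 array values followed the mean of the 7 subunits most closely were Dnajb14 (Pearson r = 0.983, Spearman rho = 0.976), Pon2 (0.983 and 1) and Pkp2 (0.980 and 0.976), out of 9637 genes compared. Dnajb14 encodes a co-chaperone of the endoplasmic reticulum, Pon2 a paraoxonase and Pkp2 a desmosomal plakophilin. These correlations describe 8 arrays that share normalization and treatment groups, and they carry no p because the genes were taken as the closest of many. Without jasplakinolide 1 and control 2, the arrays with the subunit means farthest from the median, Pearson's r was 0.973, 0.963 and 0.990. Their own log2 differences were 0.11 ± 0.05, 0.13 ± 0.05 and 0.10 ± 0.05 (SE), and none passed the test.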

How the data were processed

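Per the submitters' processing notes, Affymetrix Expression Console and RMA were used; which versions is not given in the sources used here. The values the authors deposited are on a log2 scale, for 35556 probe sets on each of 8 arrays. Array medians lay between 7.30 and 7.39. The platform annotation named the probe sets, and those with several genes or none were left out, which gave 19938 genes, each by its brightest probe set. No filter was used.

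The group comparison used limma 3.58.1 under R 4.3.3 (lmFit, eBayes, two-sided, no covariate; 6 residual and 3.43 prior degrees of freedom), with Benjamini-Hochberg adjustment across the 19938 genes and a threshold of 0.05. Errors of differences are limma's standard errors. Paralogue ratios were tested by exact permutation over arrays. The planned ratio of Actr3b to Actr3 was not run, as Actr3b was not analysed here, so p-values were adjusted over 2 pairs. The fit was tested on simulated data. Figures were drawn with matplotlib 3.10.9.

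Both groups carry replicate numbers 1 to 4. After subtracting group means, arrays of equal number correlated at 0.24 to 0.56 over all genes and those of different number at -0.62 to 0.52, with 6 of 8 arrays closest to their own number. All 4 equal-number correlations exceeded 0.1, as did the highest of different number. On that ground the numbers were treated, from the data and not the labels, as a possible pairing. The labels do not say what a number shares, so the main fit had no block and a fit with that block stood beside it. Other alternatives were filters on dim genes, 3 rescalings, other variance models, other probe set rules, a stricter threshold and arrays left out.

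The members, lists and tests were chosen with earlier results of these data known. The text names all members; up to 3 called genes per list by size of difference, or 2 where none was called; Wasl, Wasf2, Cttn, Rac1, Cdc42, Capzb, Coro1c and Arpin; and the 3 closest genes by Pearson correlation in the brighter 50% (predicted genes left out). Named after their values were seen were Coro2a, Cldn5, Vwf, Cdh5, Emcn, Kdr, Tek and, in a figure, Acta2 and Tagln. Motifs were also chosen then. Cyfip1 and Ly6a were not analysed here, and 1 listed blood cell marker is not reported here.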

Additional observations from a re-analysis of the deposited data

Results flagged for a closer look

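In 4 of 74 groups of 4 arrays examined, 1 array stood apart from the other 3 by more of the group's range than Dixon's 95% critical value of 0.829 allows; chance gives about 1 in 20. Arpc5 was high on control 1, at 12.38 log2 against 12.19 to 12.21 on the other control arrays. Arpc5l was low on control 2, at 8.20 log2 against 8.44 to 8.46. Wasl was also low on control 2, at 9.93 against 10.04 to 10.06 log2. Capzb was high on jasplakinolide 3, at 12.24 against 12.21 to 12.22 log2.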

How the results depend on the processing

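The count of subunits called was 0 under every alternative run, and their median log2 difference lay between 0.03 (without control 2) and 0.11 (without control 1). The lowest adjusted p of any subunit was 0.0750, for Arpc2 with an intensity trend and robust prior. The replicate block changed no call of a subunit, of their regulators or of a contractile marker.

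The count over all genes was 377 with the block, 296 among the brighter 50% of genes, 277 after a second quantile normalization, 299 after cyclic loess, 358 with an intensity trend and robust prior, 457 with array weights and 45 at an adjusted p under 0.01, and 43 to 150 with 1 array left out. Of the 154 genes 87 were higher and 67 lower; the split was 69 and 34 after median centring (103 genes), 131 and 146 after quantile normalization, and 137 and 162 after cyclic loess. The median log2 difference of all genes was 0.012 as given. It was 0.0058 after median centring, 0.0148 after quantile normalization and 0.0064 after cyclic loess.

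Endothelial markers called numbered 3 with the block or an intensity trend, 2 after cyclic loess or with array weights, 0 at an adjusted p under 0.01 and 0 to 1 with 1 array left out. Adventitial markers called numbered 1 with the block, in the brighter 50%, with an intensity trend or with array weights; blood cell markers called numbered 1 with the block. Regulators in the inhibitor list called numbered 0 to 1 with 1 array left out.

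With array weights Hcls1 turned from -0.18 to 0.013. The other signs that turned belonged to values near 0, and no cause was tested. Without control 2 and jasplakinolide 4, Arpc1b was at 0.00047, Cdc42 at -0.012, Wasf2 at -0.0042 and the shift of Arpc5l minus Arpc5 at -0.019. Arpc4 was at -0.0062 after median centring (-0.019 to 0.019 with 1 array left out). Cdc42 was at -0.0012 after median centring, -0.0063 after quantile normalization and -0.0014 after cyclic loess (-0.016 to 0.024 with 1 array left out). With array weights Wasf2 was at -0.0017; with 1 array left out Wasf2 ran from -0.012 to 0.020. With the replicate block (sign flips within the 4 pairs, whose smallest p is 0.125) the shift of Arpc1b minus Arpc1a had an exact p of 0.125. With 1 array left out it ran from 0.036 to 0.057, and that of Arpc5l minus Arpc5 from -0.034 to 0.061.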
